A study of Mus musculus with 6 samples.

Results

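The 35 genes described here encode the machinery that burns fatty acids in the liver, with ketone body metabolism and further targets of PPAR-alpha, and they were chosen by name from the deposited table of gene counts, in which all 35 of them were found among 41388 genes. RNA-Seq of whole liver covered 3 control and 3 *Mttp-IKO* pools, each made from the RNA of several mice. Mice of both genotypes were male, of C57BL/6 background, and had eaten a methionine- and choline-deficient (MCD) diet for 3 weeks before a fast of 4 h. *Mttp-IKO* mice carried floxed *Mttp* alleles with a tamoxifen-inducible Villin Cre ER T2 transgene and received tamoxifen, which deletes *Mttp*, the gene of the microsomal TG transfer protein needed for chylomicron assembly, in the intestinal epithelium. Control mice were littermates given vehicle and are labelled wild type. Each replicate is a pool, so individual mice vary more than the errors given here. The comparison asks whether fatty acid oxidation genes differ in liver when intestinal *Mttp* is deleted. Tamoxifen went to *Mttp-IKO* mice only, so its own part cannot be told apart from that of the deletion.

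Long-chain fatty acids enter mitochondria through the carnitine shuttle and are shortened by beta-oxidation, whose electrons pass through the electron transfer flavoprotein to the respiratory chain and whose acetyl-CoA the liver can turn into ketone bodies during fasting. Very long and branched chains are first shortened in peroxisomes, and CYP4A enzymes of the endoplasmic reticulum oxidize the far (omega) end of the chain. PPAR-alpha is a nuclear receptor that binds fatty acids and, together with RXR, raises many genes of all 3 compartments.

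Levels are given as CPM, the reads of a gene relative to all reads of its pool after TMM scaling, and differences as the log2 fold change (log2FC) of *Mttp-IKO* against control from edgeR, with its SE and a p-value adjusted over all 17287 genes tested. All 35 members passed the filter on low counts. The pools held 25271585 to 36238734 reads on genes. *Mttp-IKO* pool 3 stood apart from the other libraries: small RNAs took 0.291% of its reads against 1.92 to 3.51% in the other 5, and coding genes of 300 to 1000 nt took 1.84% of its reads on coding genes against 3.98 to 4.28%. Every comparison is therefore also given without it where it matters. Liver *Mttp* read 90.4, 186 and 175 CPM in the control pools and 145, 129 and 161 CPM in the *Mttp-IKO* pools (adjusted p = 0.926), which does not check the labels because Villin Cre acts in the intestine.

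Liver identity was checked on 12 hepatocyte markers, which summed to 68375 to 106976 CPM in control pools and 126328 to 181216 CPM in *Mttp-IKO* pools, with *Alb* alone at 40131 to 132236 CPM. None of the 12 passed the edgeR test, with 6 at an unadjusted p under 0.05, all higher in *Mttp-IKO*, while DESeq2 called 5 of them higher and limma-voom 0. The 9 stellate cell markers lay on the other side, with a sum of 726 to 1485 CPM in control and 320 to 357 CPM in *Mttp-IKO* pools, and 6 of the 9 fell, *Col1a1* from 102 to 345 CPM in control to 12.3 to 20.5 CPM. Macrophage markers including *Adgre1* overlapped in sum (693 to 1169 against 434 to 873 CPM), with 1 of 9 rising and 1 falling. At an unadjusted p under 0.05 were 5 of the 9 that were lower and 2 that were higher, *Adgre1* lay lower without overlap (log2FC -0.98, adjusted p = 0.0895), and DESeq2 called 3 lower and 1 higher. Lists of endothelial, cholangiocyte, adipocyte, small intestinal and erythroid markers also overlapped in sum, with 0 genes called by edgeR. At most 3 in a list stood at an unadjusted p under 0.05, and DESeq2 called 1 cholangiocyte gene. Over all genes tested, edgeR put 9.53% higher and 13.5% lower at an unadjusted p under 0.05, and DESeq2 called 11.6%. Striated muscle markers including *Ckm* summed to 127 and 957 CPM in control pools 1 and 2 and to 1.38 to 2.51 CPM in the other 4 pools. In bulk RNA a smaller share of a cell type cannot be told apart from less RNA per cell, and the part of these shifts in the values that follow was not tested.

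Among the 35 genes none of the 18 mitochondrial genes passed the edgeR test, with log2 fold changes of -0.44 to 0.60. The upper end is *Eci2*, whose product is also found in peroxisomes, and the next highest is *Cpt1a* at 0.32. *Bdh1*, the only ketone body gene of the 35, did not pass either, with a wide 95% interval of -0.62 to 0.48. The microsomal *Cyp4a14* read higher in every *Mttp-IKO* pool while *Cyp4a10* overlapped, neither passing the test. The peroxisomal genes split, with *Hacl1* higher and *Acaa1b* at lower levels short of the threshold. The 1 member past the threshold in edgeR was *Hacl1*, which rose 2.79-fold. That is 1 of 35, where 4.01% of all genes tested passed in either direction. In the higher direction it is 1 of 35 beside 0.92% of all genes, and in the lower direction 0 of 35 beside 3.09%. At an unadjusted p under 0.05 stood 5 members that were higher, beside 9.53% of all genes, and 3 that were lower, beside 13.5%. Limma-voom called 1 member, beside 2.48% of all genes, and DESeq2 5, beside 11.6%. The groups did not overlap for 6 members that were higher, beside 14.5% of all genes, and for 4 that were lower, beside 16.5%. These shares are near those of all genes. The log2 fold change was above 0 for 13 members and below 0 for 22, with *Ppara*, *Acadvl* and *Acot2* passing below 0 when pools were scaled by total counts. Its median was -0.11, against 0.0057 over all genes tested.

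**Figure D1:**
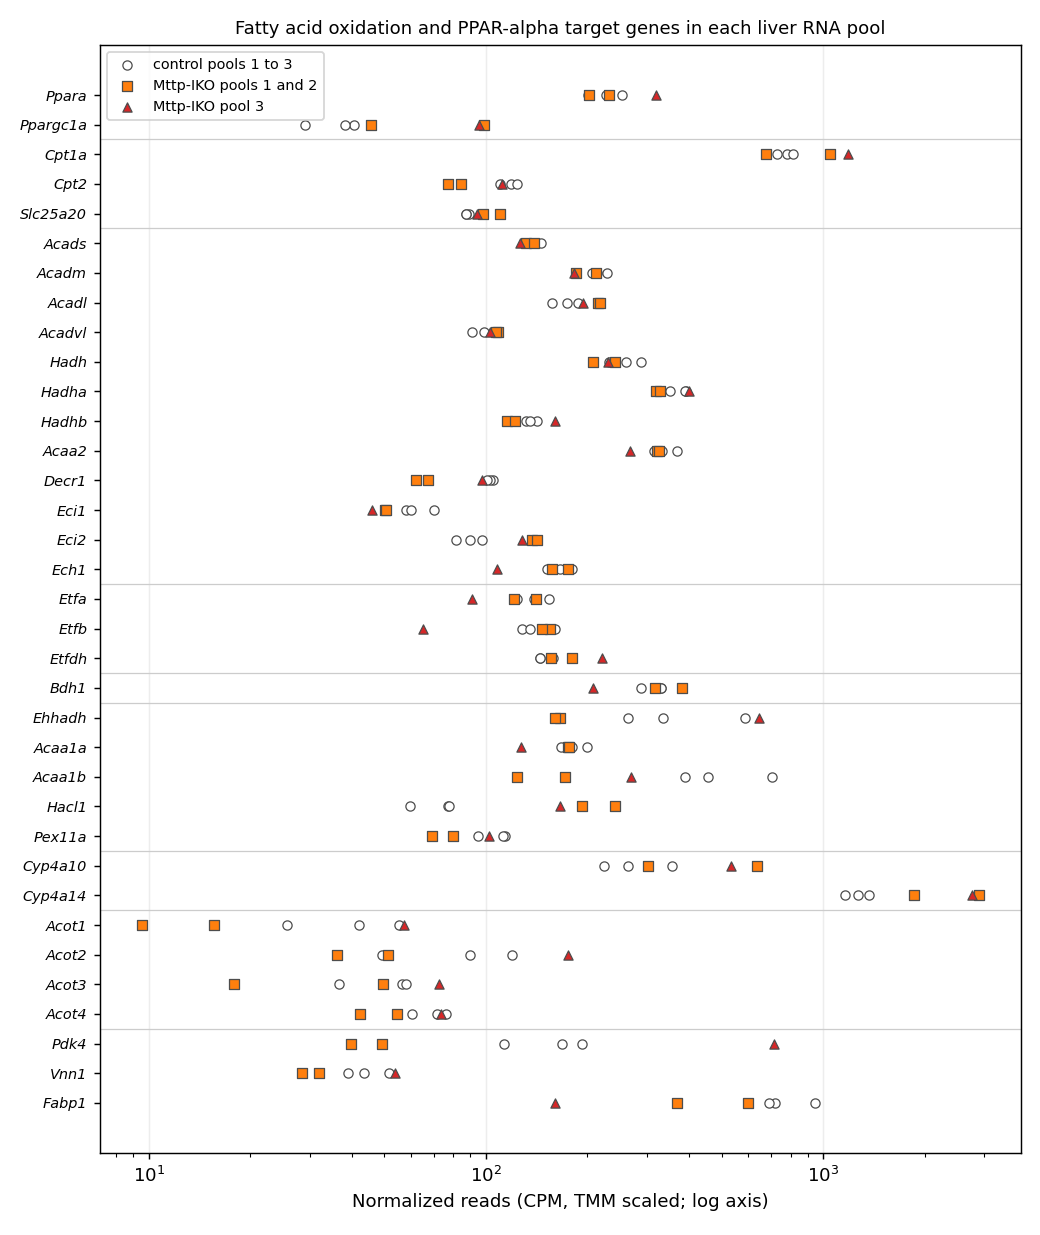
Level of each of the 35 genes in each liver RNA pool, as CPM on a log axis (horizontal), one gene a row (vertical), with lines between classes. White circles are the 3 control pools, orange squares *Mttp-IKO* pools 1 and 2, and red triangles *Mttp-IKO* pool 3. *Hacl1* and *Eci2* have all 3 *Mttp-IKO* pools to the right of all controls, *Acaa1b* has them to the left, and *Pdk4* has pools 1 and 2 to the left and pool 3 to the right.

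The receptor itself differed little. *Ppara*, which encodes PPAR-alpha, read 200, 253 and 227 CPM in control and 202, 231 and 319 CPM in *Mttp-IKO* pools, a log2 fold change of 0.14 with a 95% interval of -0.35 to 0.63 (SE 0.213, adjusted p = 0.724). The ranges overlapped, and only *Mttp-IKO* pool 3 lay above the controls. *Ppargc1a* (GRCm38 chr5:51454249-51567725), which encodes the coactivator PGC-1alpha that works with PPAR-alpha in fasting, read 29.0, 40.6 and 38.1 CPM in control and 45.5, 98.5 and 95.7 CPM in *Mttp-IKO* pools. Every *Mttp-IKO* pool lay above every control, with pool 1 closest, but the log2 fold change of 1.15 (SE 0.298, 95% interval 0.47 to 1.84) had an edgeR adjusted p of 0.0724. With *Mttp-IKO* pool 1 left out the edgeR adjusted p was 0.0476, and with any other single pool left out it was 0.105 to 0.252. *Ppargc1a* was also the least abundant of the 35 per kilobase, at 5.41 CPM per kb in control pools.

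Entry into mitochondria gave values on both sides. *Cpt1a*, the rate-limiting carnitine palmitoyltransferase of the outer membrane, read 783, 730 and 813 CPM in control and 677, 1048 and 1183 CPM in *Mttp-IKO* pools (log2FC 0.32, SE 0.237, edgeR adjusted p = 0.455). Pool 1 lay below all controls and pools 2 and 3 above them. *Cpt2*, the inner membrane partner, read 110, 119 and 124 CPM in control and 84.1, 77.1 and 111 CPM in *Mttp-IKO* pools (log2FC -0.38, SE 0.180, adjusted p = 0.259). Without *Mttp-IKO* pool 3, *Cpt2* fell by 0.55 on the log2 scale (edgeR adjusted p = 0.0483). *Slc25a20*, the carnitine-acylcarnitine exchanger, had its 3 *Mttp-IKO* pools (97.8, 110 and 94.0 CPM) just above its controls (89.0, 87.1 and 87.4 CPM), at an adjusted p of 0.447.

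The 12 genes of the mitochondrial beta-oxidation spiral stayed close together. Their summed level was 2159 ± 117 CPM in control and 2062 ± 60.7 CPM in *Mttp-IKO* pools (SD, n = 3), and their median log2 fold change was -0.13. None passed the edgeR test, while DESeq2 called 1 (*Eci2*), beside 11.6% of all genes, and limma-voom 0. At an unadjusted p under 0.05 in edgeR stood 1 higher and 1 lower, beside 9.53% and 13.5% of all genes. The dehydrogenases that take the first step, each for its own chain length, had log2 fold changes of -0.05 for *Acads*, -0.17 for *Acadm*, 0.28 for *Acadl* and 0.11 for *Acadvl*, at adjusted p-values of 0.326 to 0.858. The *Acadl* pools did not overlap, at 157, 187 and 174 CPM in control and 215, 219 and 195 CPM in *Mttp-IKO*. *Hadha* and *Hadhb*, the subunits of the trifunctional protein that carries out the later steps on long chains, had log2 fold changes of -0.11 and -0.04. In both, *Mttp-IKO* pools 1 and 2 lay below every control and pool 3 above. *Hadh*, the dehydrogenase for shorter chains, and *Acaa2*, the terminal thiolase, had log2 fold changes of -0.20 and -0.15, with overlapping pools.

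The 3 widest differences within the spiral were in auxiliary enzymes that handle unsaturated fatty acids. *Eci2* (chr13:34977748-35027094), an enoyl-CoA isomerase found in mitochondria and peroxisomes, read 81.4, 97.1 and 89.7 CPM in control and 137, 142 and 128 CPM in *Mttp-IKO* pools. All *Mttp-IKO* pools lay above all controls, a 1.52-fold difference (log2FC 0.60, SE 0.149, edgeR adjusted p = 0.0653), and *Eci2* rose without *Mttp-IKO* pool 3 (0.65, adjusted p = 0.0370). With any other single pool left out the edgeR adjusted p of *Eci2* was 0.1035 to 0.274. *Eci1*, the mitochondrial isomerase for the same kind of bond, lay on the other side, at 58.1, 70.2 and 59.9 CPM in control and 50.3, 50.7 and 45.8 CPM in *Mttp-IKO* pools (log2FC -0.36, SE 0.145, adjusted p = 0.190). *Decr1*, the dienoyl-CoA reductase, read 105, 103 and 101 CPM in control and 62.1, 67.4 and 97.5 CPM in *Mttp-IKO* pools, with pool 3 close under the controls (log2FC -0.44, adjusted p = 0.225). Without that pool *Decr1* fell by 0.67 on the log2 scale (edgeR adjusted p = 0.0268). *Ech1*, a dienoyl-CoA isomerase, overlapped between genotypes (log2FC -0.18, adjusted p = 0.637).

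**Figure D2:**
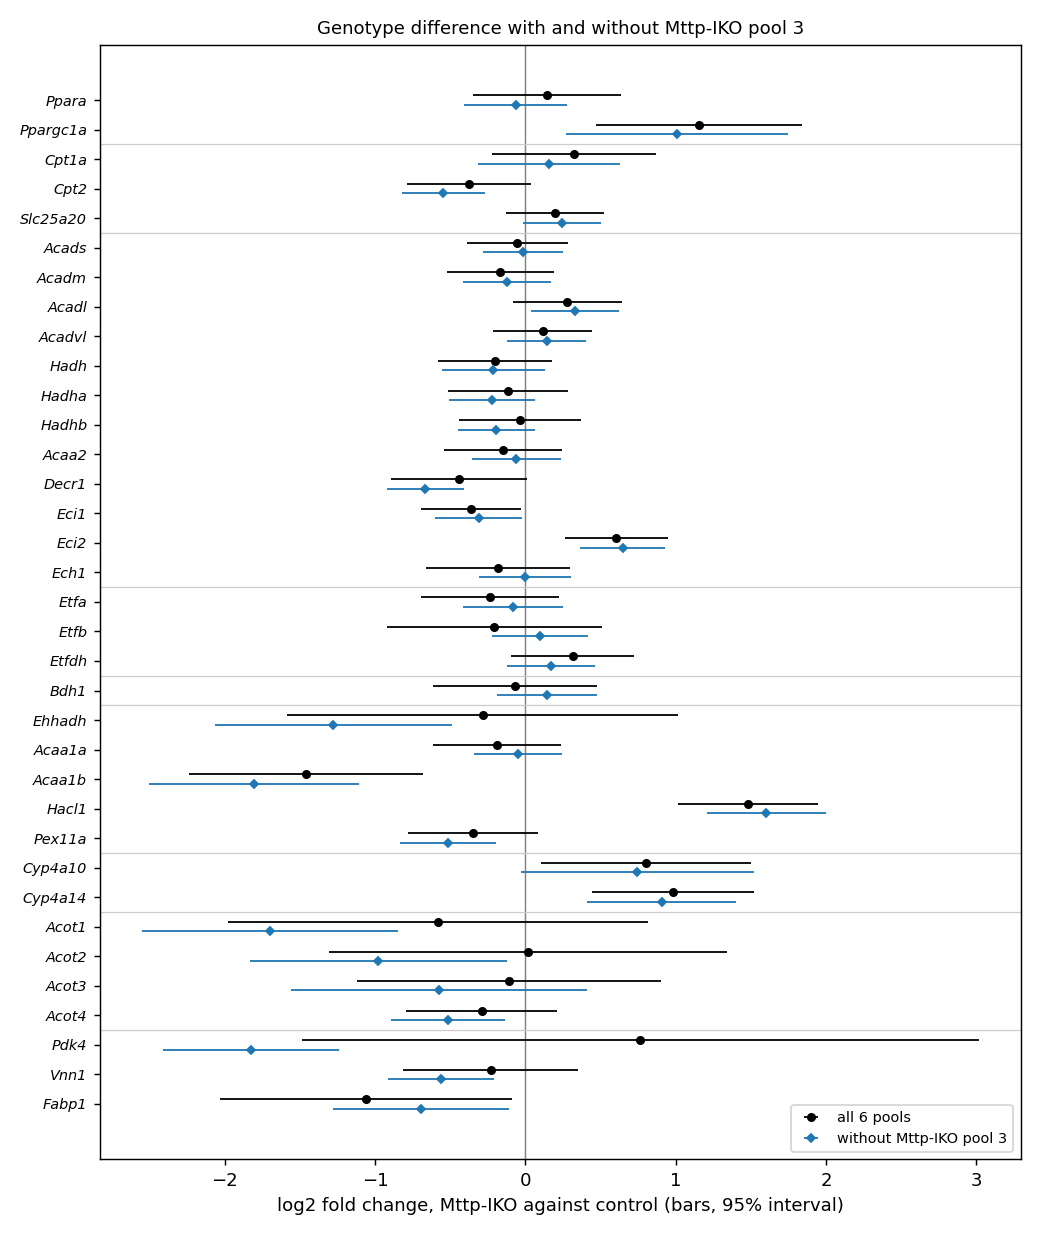
Log2 fold change of *Mttp-IKO* against control for each gene (horizontal axis, bars are 95% intervals), one gene a row, with all 6 pools (black circles) and without *Mttp-IKO* pool 3 (blue diamonds). The interval of *Pdk4* runs from -1.49 to 3.02 with all pools, and its value without pool 3 is -1.83. Those of *Hacl1*, *Eci2* and *Cyp4a14* stay above 0 in both.

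Genes of the electron transfer step that follows the dehydrogenases had values on both sides of 0, and none passed the edgeR test. *Etfa* and *Etfb*, the subunits of the electron transfer flavoprotein, had log2 fold changes of -0.24 (adjusted p = 0.512) and -0.21 (adjusted p = 0.729), and *Etfdh*, which hands the electrons to ubiquinone, had 0.31 (adjusted p = 0.332). *Etfb* read 128, 160 and 135 CPM in control and 155, 147 and 65.0 CPM in the *Mttp-IKO* group, and its negative value rested on pool 3, without which it was 0.10. With 1139 nt, *Etfb* is among the shorter members, and words of 50 bases covering 44.8% of its transcripts also occur in another annotated gene, whose part in its counts was not tested.

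Ketone body genes gave no shared direction either. *Bdh1*, the member that interconverts acetoacetate and beta-hydroxybutyrate, read 330, 331 and 289 CPM in control and 382, 317 and 208 CPM in *Mttp-IKO* pools, with 1 pool above, 1 within and 1 below the control range (log2FC -0.07, SE 0.238, 95% interval -0.62 to 0.48, edgeR adjusted p = 0.893). Of 6 other ketone body genes, 1 passed the test. *Oxct1*, which encodes the transferase by which other tissues use ketone bodies and is very low in hepatocytes, fell from 16.1, 13.4 and 14.2 CPM to 5.06, 5.73 and 5.83 CPM (log2FC -1.40, SE 0.170, adjusted p = 0.0159). The stellate cell markers were lower in the same pools, and their part in the *Oxct1* value was not tested. *Acat1*, the thiolase that starts ketogenesis, named after its values were seen, read 285, 302 and 273 CPM in control and 171, 217 and 149 CPM in *Mttp-IKO* pools without overlap (log2FC -0.68, edgeR adjusted p = 0.0862).

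Peroxisomal genes held the 1 member called by edgeR and the highest and lowest log2 fold changes of the 35. *Hacl1* (ENSMUSG00000021884, chr14:31552905-31641286, minus strand), the lyase that removes 1 carbon from branched and hydroxylated fatty acids in alpha-oxidation, read 59.6, 77.2 and 78.0 CPM in control and 193, 241 and 166 CPM in *Mttp-IKO* pools. Each *Mttp-IKO* pool was above each control, with means of 71.6 ± 10.4 and 199.9 ± 38.0 CPM (SD, n = 3). The log2 fold change of 1.48 had an SE of 0.202, a 95% interval of 1.02 to 1.95 and an edgeR adjusted p of 0.0181. With any single pool removed its size was 1.33 to 1.60. The adjusted p passed the threshold without control pool 2 or *Mttp-IKO* pool 3 and missed it without control pool 1 (0.0831), control pool 3 (0.0760), *Mttp-IKO* pool 1 (0.061) or *Mttp-IKO* pool 2 (0.0954), in fits that called 0 to 55 genes of all those tested. In the GENCODE M21 annotation 33.3% of the exon bases of *Hacl1* overlap other genes. These are *Gm49387* on the same strand and the biotinidase gene *Btd* on the opposite strand. Words of 50 bases shared with other genes, mostly *Gm49387*, make up 30.1% of the *Hacl1* transcripts. Whether strand was used in counting is not stated, and the part of these overlaps in the *Hacl1* counts was not tested. *Btd*, named for its overlap, read 51.9, 63.0 and 55.6 CPM in control and 66.1, 75.1 and 105 CPM in *Mttp-IKO* pools (log2FC 0.53, adjusted p = 0.169).

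*Acaa1b* (chr9:119148023-119157093), one of a pair of mouse peroxisomal thiolases and a strong PPAR-alpha target, stood in the opposite direction. It read 706, 388 and 457 CPM in control and 171, 124 and 269 CPM in *Mttp-IKO* pools, every one below the controls. The 2.75-fold lower level (log2FC -1.46, SE 0.338, 95% interval -2.24 to -0.68) had an edgeR adjusted p of 0.0554. It fell without *Mttp-IKO* pool 3 (-1.81, adjusted p = 0.0270) and without control pool 2 (-1.65, adjusted p = 0.0481), and missed the threshold without control pool 1 (0.180), control pool 3 (0.145), *Mttp-IKO* pool 1 (0.115) or *Mttp-IKO* pool 2 (0.171). Its paralog *Acaa1a* read 167, 199 and 180 CPM in control and 175, 177 and 127 CPM in *Mttp-IKO* pools (log2FC -0.19, adjusted p = 0.573). Words of 50 bases shared with other genes, mostly *Acaa1a* and otherwise *Dlec1* on the opposite strand, make up 39.6% of the *Acaa1b* transcripts, and their part in its counts was not tested.

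*Ehhadh*, the bifunctional enzyme of the middle steps of peroxisomal beta-oxidation, read 587, 263 and 334 CPM in control and 165, 160 and 646 CPM in *Mttp-IKO* pools. Pools 1 and 2 lay below every control and pool 3 above every control, which left a log2 fold change of -0.29 with a 95% interval of -1.59 to 1.02 (adjusted p = 0.801). Without pool 3 it was -1.28 (edgeR adjusted p = 0.0750). *Pex11a*, a membrane protein of peroxisome division, read 114, 94.7 and 112 CPM in control and 69.3, 79.9 and 102 CPM in *Mttp-IKO* pools (log2FC -0.35, adjusted p = 0.306). Its value without pool 3 was -0.52 (edgeR adjusted p = 0.0763). Of 31 other peroxisomal genes 1 rose and none fell: *Abcd2*, a transporter of very-long-chain acyl-CoA, went from 36.3, 44.4 and 36.1 CPM to 67.1, 68.5 and 59.1 CPM (log2FC 0.74, SE 0.153, adjusted p = 0.0425). At an unadjusted p under 0.05 the edgeR fit held 5 of these 31 that were higher, beside 9.53% of all genes. It held 3 that were lower, beside 13.5%. DESeq2 called 1 in each direction, beside 11.6% of all genes in either direction.

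The 2 microsomal *Cyp4a* members were the class with the largest positive median log2 fold change, 0.89. Their summed level did not overlap between genotypes: 1385 to 1727 CPM in control pools and 2158 to 3527 CPM in *Mttp-IKO* pools, a ratio of means of 1.94. *Cyp4a14* (chr4:115486200-115496142), a fatty acid omega-hydroxylase strongly induced by PPAR-alpha agonists, carried most of that sum. It read 1161, 1371 and 1270 CPM in control and 1855, 2890 and 2771 CPM in *Mttp-IKO* pools, all above the controls with pool 1 lowest (log2FC 0.98, SE 0.234, 95% interval 0.45 to 1.52, edgeR adjusted p = 0.0592). *Cyp4a10*, its neighbour on chromosome 4 with the same activity, read 224, 356 and 263 CPM in control and 303, 637 and 533 CPM in *Mttp-IKO* pools, overlapping at *Mttp-IKO* pool 1 (log2FC 0.80, SE 0.303, adjusted p = 0.168). Both values moved by little without *Mttp-IKO* pool 3, *Cyp4a14* to 0.91 (adjusted p = 0.0579) and *Cyp4a10* to 0.745 (adjusted p = 0.206). With each pool left out in turn *Cyp4a14* ran from 0.87 to 1.16 (edgeR adjusted p 0.0579 to 0.234). *Cyp4a10* ran from 0.57 to 1.06 (edgeR adjusted p 0.0845 to 0.451). Words of 50 bases shared with other genes, mainly *Cyp4a32*, make up 29.8% of *Cyp4a10* transcripts but 0.235% of those of *Cyp4a14*. *Cyp4a32* itself was not higher, at 19.3, 30.7 and 21.6 CPM in control and 10.4, 18.4 and 30.1 CPM in *Mttp-IKO* pools (log2FC -0.28, edgeR adjusted p = 0.676).

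Of 11 other genes of microsomal omega-oxidation, 1 rose and 0 fell in edgeR. At an unadjusted p under 0.05 stood 3 higher and 2 lower, beside 9.53% and 13.5% of all genes. DESeq2 called the same numbers, beside 11.6% of all genes in either direction. The pair on the lower side, *Aldh3a2* and *Adh4*, named after their values were seen, encode dehydrogenases and did not overlap between genotypes (log2FC -0.83 and -0.77, edgeR adjusted p = 0.104 and 0.0924). *Cyp4a31*, another gene of the same cluster, went from 152, 156 and 159 CPM in control to 268, 271 and 243 CPM in *Mttp-IKO* pools (log2FC 0.74, SE 0.150, edgeR adjusted p = 0.0401). Its pools were tighter than those of *Cyp4a10* and *Cyp4a14*. *Por*, the reductase that supplies electrons to cytochrome P450 enzymes and the most abundant of the 11, read 979, 1018 and 1122 CPM in control and 1173, 1809 and 1948 CPM in *Mttp-IKO* pools without overlap (log2FC 0.66, adjusted p = 0.152). The hepatocyte markers were higher in the same pools, and their part in these values was not tested.

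**Figure D3:**
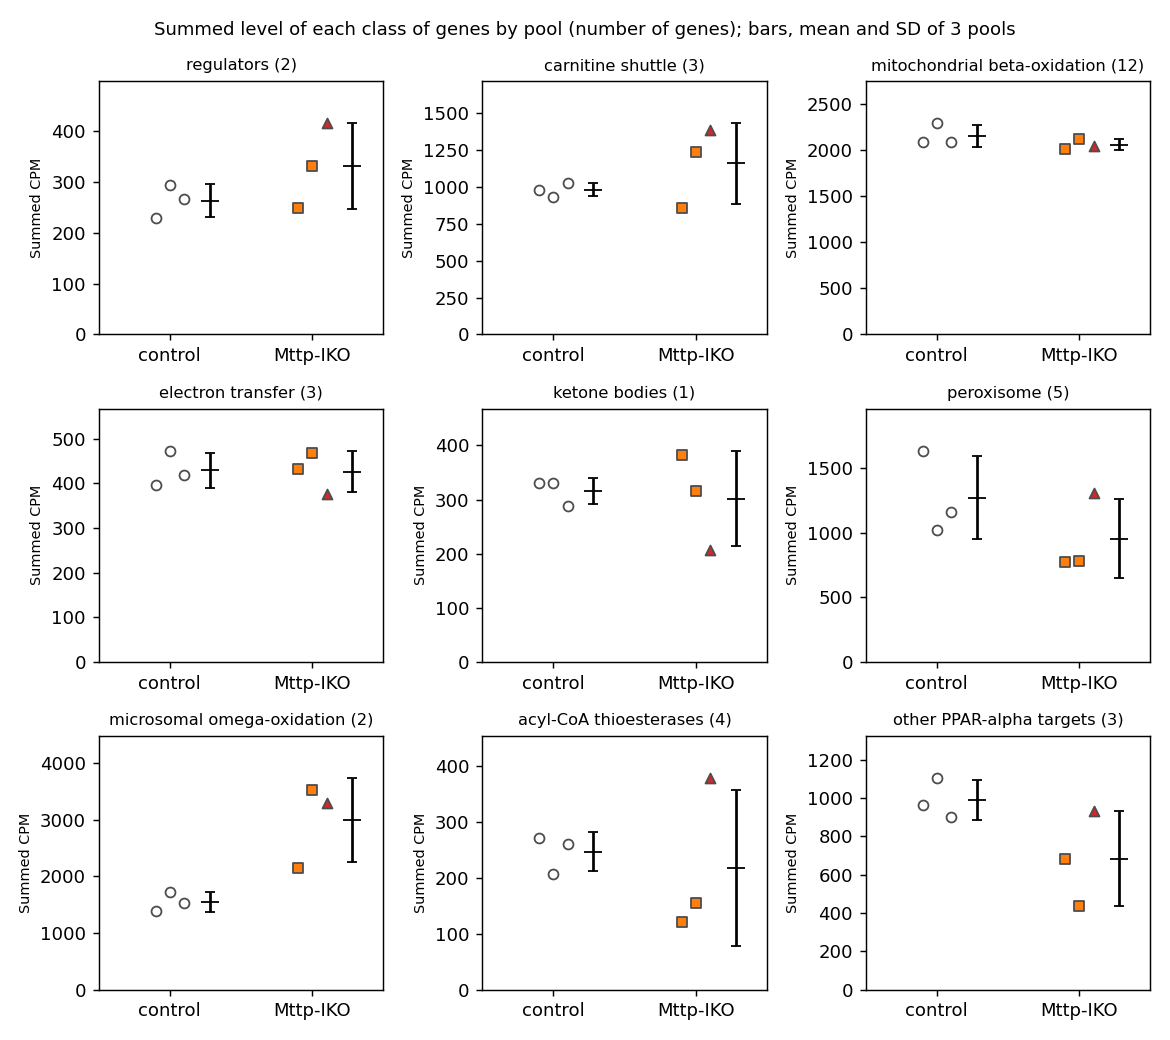
Summed CPM of each class of genes (vertical axes, starting at 0) in control and *Mttp-IKO* pools, with the number of genes in each title. White circles are control pools, orange squares *Mttp-IKO* pools 1 and 2, red triangles *Mttp-IKO* pool 3, and the bars beside them the mean and SD of 3 pools. The microsomal class is the one of the 9 in which the genotypes do not overlap. Mitochondrial beta-oxidation sums lie within 2011 to 2295 CPM in all 6 pools.

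The 4 acyl-CoA thioesterases, which release free fatty acids from CoA in the cytosol (*Acot1*), mitochondria (*Acot2*) and peroxisomes (*Acot3*, *Acot4*), lie side by side on chromosome 12 and varied more between *Mttp-IKO* pools than between genotypes. *Acot1* read 55.3, 25.7 and 41.9 CPM in control and 9.54, 15.7 and 57.2 CPM in *Mttp-IKO* pools. *Acot2* read 120, 49.3 and 89.7 CPM in control and 51.3, 36.1 and 175 CPM in *Mttp-IKO* pools. In each, pool 3 was the highest of all 6 pools, and the log2 fold changes of -0.58 for *Acot1* and 0.02 for *Acot2* had 95% intervals of -1.98 to 0.82 and -1.31 to 1.34. Without pool 3 *Acot1* fell by 1.70 on the log2 scale (edgeR adjusted p = 0.0483), and *Acot2* stood at -0.98 (adjusted p = 0.147). *Acot3* and *Acot4* had log2 fold changes of -0.11 (adjusted p = 0.908) and -0.29 (adjusted p = 0.463). Without pool 3 they stood at -0.57 (edgeR adjusted p = 0.420) and -0.52 (edgeR adjusted p = 0.106). Sequence shared with other genes covers 19.2% of the *Acot1* and 27.7% of the *Acot2* transcripts as words of 50 bases.

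The remaining PPAR-alpha targets act at the edges of the pathway. *Pdk4* (chr6:5483351-5496309), the kinase that closes pyruvate dehydrogenase when fat is burned, read 193, 113 and 169 CPM in control and 49.2, 39.9 and 717 CPM in *Mttp-IKO* pools. It was the most divided of the 35, with pools 1 and 2 below every control and pool 3 above all of them, and its log2 fold change of 0.76 had an SE of 0.978 and a 95% interval of -1.49 to 3.02 (adjusted p = 0.677). Without pool 3 *Pdk4* fell by 1.83 on the log2 scale (edgeR adjusted p = 0.0208). *Vnn1*, a pantetheinase of the cell surface, split in the same way, at 51.5, 43.5 and 39.0 CPM in control and 32.0, 28.5 and 53.9 CPM in *Mttp-IKO* pools (log2FC -0.23, adjusted p = 0.623). Its value without pool 3 was -0.56 (edgeR adjusted p = 0.0768).

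*Fabp1*, the cytosolic fatty acid binding protein of liver and the most abundant member per kilobase (1420 CPM per kb in control and 681 in *Mttp-IKO* pools), read 718, 945 and 692 CPM in control and 600, 369 and 161 CPM in *Mttp-IKO* pools. All *Mttp-IKO* pools lay below the controls, with pool 3 lowest (log2FC -1.06, SE 0.423, 95% interval -2.03 to -0.09, edgeR adjusted p = 0.187). At 553 nt *Fabp1* is the shortest of the 35, in the length class that was scarce in *Mttp-IKO* pool 3. Its log2 fold change was -0.69 without that pool (adjusted p = 0.137) and -0.98 once each library's trend with gene length was removed (adjusted p = 0.148).

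PPAR-alpha with RXR binds 2 copies of AGGTCA in the same direction with 1 base between them. The RefSeq promoters (GRCm38.p6), of 250 bases before to 50 after each start, held 30 of the 35 genes, and a match with at most 2 differences over the 12 fixed letters, on either strand of the 250 bases before the start, was found in 3 of the 30, against 3.72% of all 27025 genes in the table. The 3 stretches are shown, 5′ to 3′ on the strand of the gene with the matched letters in capitals, because they hold the only such words found among the 30 genes. *Fabp1*, with 1 difference, is at chr6:71199772-71199864 on the plus strand, *Acot4*, with 2, at chr12:84038326-84038378 on the plus strand and *Etfa*, with 2, at chr9:55512268-55512360 on the minus strand.
Fabp1: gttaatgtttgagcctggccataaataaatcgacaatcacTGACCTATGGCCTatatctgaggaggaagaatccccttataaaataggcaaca
Acot4: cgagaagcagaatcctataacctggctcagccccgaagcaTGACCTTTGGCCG
Etfa: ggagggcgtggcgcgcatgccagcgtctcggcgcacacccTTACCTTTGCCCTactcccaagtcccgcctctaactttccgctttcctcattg
All 3 matches read as the repeat on the opposite strand, and they begin 67, 13 and 77 bases before the start of *Fabp1*, *Acot4* and *Etfa*. A match describes letters and is not a measured binding site, and the 27 genes searched without a match may have sites elsewhere. *Acaa2*, *Decr1*, *Cyp4a10*, *Cyp4a14* and *Vnn1* had no promoter in the set and were not searched. The log2 fold changes of the 3 genes were -1.06, -0.29 and -0.24, and none passed the test.

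The division within the *Mttp-IKO* group was looked for after the values had been seen. In 6 of the 35, that is 17.1%, *Mttp-IKO* pools 1 and 2 lay below every control and pool 3 above every control: *Hadha*, *Hadhb*, *Ehhadh*, *Acot1*, *Pdk4* and *Vnn1*. Over all genes tested 557 did so, 3.22%. Fitted without pool 3, 7 members passed the edgeR test against 4.84% of all genes. Of these *Hacl1* (1.60, adjusted p = 0.0113) and *Eci2* were higher, beside 1.69% of all genes in that direction. *Acaa1b*, *Acot1*, *Cpt2*, *Decr1* and *Pdk4* were lower, beside 3.15%. The other libraries do not share the low small RNA content of pool 3, and the part of that difference in the split was not tested.

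**Figure D4:**
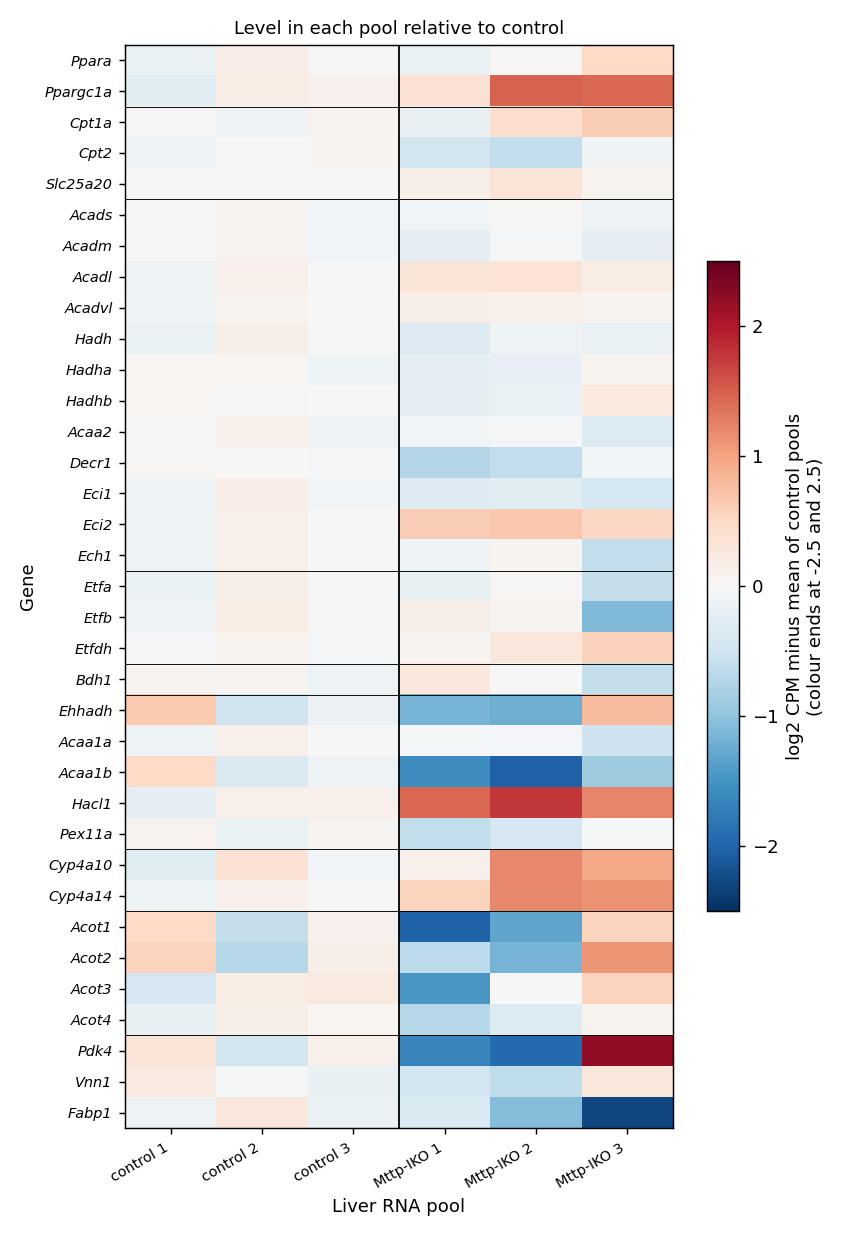
Level of each gene in each pool as log2 CPM minus the mean of the control pools (colour, red above and blue below, ending at -2.5 and 2.5), with pools as columns, genes as rows, and lines between classes. *Pdk4*, *Ehhadh*, *Acot1* and *Acot2* are blue in *Mttp-IKO* pools 1 and 2 and red in pool 3, while *Hacl1* and *Cyp4a14* are red in all 3 *Mttp-IKO* pools.

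Beyond the members, 5 of 112 tested genes of the same pathways passed, 2 higher (*Abcd2* and *Cyp4a31*) and 3 lower, out of 116 listed, near the 4.01% of all genes. With control pool 1, control pool 3, *Mttp-IKO* pool 1 or *Mttp-IKO* pool 2 removed, edgeR called 0 of these genes, with 14 to 38 at an unadjusted p under 0.05. Of the 3 that were lower with all pools, *Oxct1* was 1, and the other 2 are fatty acid uptake proteins among 22 tested PPAR-alpha targets. *Cd36*, a fatty acid translocase, fell from 299, 168 and 297 CPM to 92.2, 121 and 95.3 CPM (log2FC -1.31, SE 0.255, edgeR adjusted p = 0.0358). *Slc27a1*, a fatty acid transport protein that is low in liver, fell from 28.7, 30.3 and 35.6 CPM to 12.3, 12.7 and 13.6 CPM (log2FC -1.29, SE 0.153, adjusted p = 0.0151). *Plin2*, a lipid droplet coat protein and the most abundant of these targets, read 1050, 653 and 941 CPM in control and 1049, 616 and 1127 CPM in *Mttp-IKO* pools (adjusted p = 0.898).

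None of 20 other mitochondrial fatty acid genes passed the edgeR test. At an unadjusted p under 0.05 stood 1 higher and 3 lower, beside 9.53% and 13.5% of all genes. DESeq2 called 1 in each direction, beside 11.6% of all genes, and limma-voom 0. *Acsl1*, the acyl-CoA synthetase that activates fatty acids and the most abundant of the 20, read 460, 650 and 625 CPM in control and 434, 693 and 1278 CPM in *Mttp-IKO* pools (log2FC 0.47, adjusted p = 0.486). None of 22 partners and corepressors of PPAR-alpha passed either. At an unadjusted p under 0.05 stood 2, both higher, beside 9.53% of all genes. DESeq2 called 1, beside 11.6% of all genes, and limma-voom 0. *Hnf4a*, a nuclear receptor of hepatocyte identity, itself one of the 12 hepatocyte markers, and the most abundant of the 22 per kilobase, read 564, 686 and 600 CPM in control and 868, 1203 and 1318 CPM in *Mttp-IKO* pools, without overlap (log2FC 0.87, SE 0.217, edgeR adjusted p = 0.0664).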

How the data were processed

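Liver RNA pools (3 per genotype, of 3 to 4 mice each per the article) were sequenced after ribosomal RNA depletion. Per-pool tables deposited by the authors give a read count for 41388 genes, made with STAR 2.5.1a on GRCm38 and featureCounts 1.4.6-p5 from uniquely aligned, unambiguous reads, without normalization. Strand use is not given in the sources used here. The deposited CPM (count over the pool's total) and RPKM (CPM per kilobase) follow from these counts, which alone were analysed. A joint deposited table pairs 40481 genes with symbols, after 276 repeated lines were dropped. Samples were grouped by their titles, and the pool is the replicate. Nothing says that the pools share no mice, so p-values measure the spread between pools.

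Genes were kept by filterByExpr (minimum count 10, minimum total 15), scaled by TMM (factors 0.898 to 1.11) and compared by the quasi-likelihood test of edgeR 4.0.16 (R 4.3.3), with Benjamini-Hochberg adjustment over 17287 genes and a threshold of 0.05. The smallest two-sided p of an exact permutation test at this size is 0.1. A count of 0 allows up to 3 reads, 0.0828 to 0.119 CPM, for counting error only, and no 2 pools were alike within sampling noise. In simulated counts with 200 genes of 17044 changed 4-fold, edgeR recovered 200 and called 24 unchanged genes. The simulation gave every gene the same spread, set below the common dispersion of the data, and held no outlying pool. It therefore checks the code and does not measure power at the spread of these pools. The members and all lists were chosen with earlier results of these data known. The genes named are the 35 members, the called genes of each pathway list and its most abundant one (by CPM and per kilobase), *Alb*, *Adgre1*, *Col1a1*, *Ckm* and *Mttp*. *Acat1*, *Btd*, *Gm49387*, *Dlec1*, *Cyp4a32*, *Aldh3a2*, *Adh4*, *Fgf21* and *Cyp4a12a* were added after their values were seen or for overlap or shared sequence with a member. Some genes under this rule are not reported here. Alternatives were other scalings, filters and tests (DESeq2 1.42.0, voom of limma 3.58.1), robust dispersion, coding genes alone, a replicate block, removal of a loess trend with gene length (span 0.3), and leaving out each pool. Words of 50 bases shared between genes and exon overlaps were counted in GENCODE M21 transcripts and exons.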

Additional observations from a re-analysis of the deposited data

How the results depend on the processing

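Of 419 member values under other settings with all pools, 390 kept their direction and side of the threshold, as did 187 of 210 with a pool left out. All genes called numbered 694 as reported, 1995 by DESeq2 (657 higher, 1338 lower), 428 by limma-voom, 1658 at a threshold of 0.1, and 0 to 892 with a pool left out, the 0 being without *Mttp-IKO* pool 2, where 3221 had an unadjusted p under 0.05. Total-count scaling shifted the median of all genes to -0.175 and called 112 higher and 907 lower, against 159 and 535 as reported. It put the medians of all members and of mitochondrial beta-oxidation at -0.30 and -0.31. Members called numbered 2 with upper quartile or total-count scaling or coding genes alone, 5 by DESeq2 or at a threshold of 0.1, 4 without a filter and 3 with the length trend removed. Other pathway genes called numbered 15 by DESeq2, beside 11.6% of all genes. With each pool left out in turn 0 to 7 members and 0 to 11 other pathway genes were called, both highest without *Mttp-IKO* pool 3, and medians ran from -0.36 to 0.10 for electron transfer and from -0.52 to -0.23 for peroxisomal genes.

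Whether the replicate numbers pair the pools is not settled by the values. Same-numbered pools correlated at 0.164, 0.143 and 0.0027 in their deviations, and the other pairs at -0.166 to 0.0143. Control pool 3 correlated best, by a trace, with *Mttp-IKO* pool 2 (0.0031). A replicate block called 3 members (*Acaa1b*, *Hacl1* and *Ppargc1a*), 2 other pathway genes and 592 of all genes, and with the length trend removed as well 3 members.

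Signs turned for *Acot2* (-0.016 upper quartile, -0.17 total counts, -0.23 voom, -0.026 no filter, -0.24 block, -0.18 block with length), *Pdk4* (-0.43 voom, -0.61 block, -0.58 block with length), *Ppara* (-0.033) and *Acadvl* (-0.064) by total counts, and *Acads* (0.017 with the length trend removed, with or without the block). With a pool left out, values crossed 0 for *Ppara* (-0.064 to 0.28), *Hadhb* (-0.19 to 0.054), *Etfb* (-0.41 to 0.10), *Bdh1* (-0.27 to 0.14), *Ehhadh* (-1.28 to 0.085), *Acot2* (-0.98 to 0.39), *Acot3* (-0.57 to 0.28) and *Pdk4* (-1.83 to 1.27). The cause was not tested.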

Other observations

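Per kilobase, the members with the highest control levels after *Fabp1* were *Cyp4a14* (487 CPM per kb, against 963 in *Mttp-IKO*), *Acaa1b* (263, against 95.9), *Acaa2* (224, against 201) and *Cpt1a* (180, against 225).

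*Fgf21*, a hepatokine induced by PPAR-alpha in fasting and named after its values were seen, divided the *Mttp-IKO* pools the other way from *Pdk4*: it read 33.6, 24.4 and 30.6 CPM in control and 48.1, 73.8 and 8.01 CPM in *Mttp-IKO* pools (log2FC 0.55, edgeR adjusted p = 0.630). At 930 nt *Fgf21* is in the length class that was scarce in *Mttp-IKO* pool 3, and the part of that scarcity in its low value there was not tested. *Cyp4a12a*, an omega-hydroxylase also named after its values were seen, read 15.1, 14.5 and 8.59 CPM in control and 0.193, 0.446 and 54.3 CPM in *Mttp-IKO* pools (log2FC 0.52, edgeR adjusted p = 0.865), with pool 3 above every control, as in *Pdk4*.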
